A study of Homo sapiens with 20 samples.

Results

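WT and GPX2 knockout (KO) cells were compared at day 8 of pancreatic differentiation, the early pancreatic endoderm (PEN) stage. Both come from HUES8, an established human embryonic stem cell line. The KO is 1 clonal line, made with guides that deleted GPX2 in HUES8-iCas9, a derivative of HUES8 with doxycycline-inducible Cas9. The cells were grown as spheroids and had received retinoic acid, PdBu (a protein kinase C activator), SANT-1 (a hedgehog inhibitor), LDN193189 (a BMP receptor inhibitor) and KGF for about a day, in both genotypes alike. Their RNA was counted as UMIs, that is as single captured molecules, by combinatorial indexing, with 1 library per genotype. Barcodes with at least 200 genes and under 5% mitochondrial UMIs were taken as cells, which left 1701 of 1709 WT and 1837 of 1849 KO barcodes, 3538 cells of 2 of the 20 samples of the series. The methods of the study state more sequenced cells for both genotypes than there are barcodes in these matrices.

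The WT library held 2869485 UMIs with a median of 1040 per cell, and the KO library 2602874 with a median of 836. No barcode was shared. A few barcodes weighed heavily, since 11 WT and 22 KO barcodes above 10 times the median held 25.3% and 20.4% of the UMIs. Each sum is therefore read with and without them. No doublet caller was run. Block 2 of the barcode, taken here as the well of the initial plate, had 4 values in each library and none in common, with 206 to 713 cells a well. These wells are parts of the same culture and give the technical spread only. With 1 library per genotype there is no test between genotypes, and all intervals are 95% and cover counting error only.

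Pancreatic endoderm forms from posterior foregut endoderm under retinoic acid, while hedgehog and BMP signalling are held low. FOXA and GATA factors open the endodermal programme, and PDX1 and SOX9 later mark the pancreatic progenitors. CYP26A1 breaks down retinoic acid and is itself switched on by it, and anterior HOX genes are classical targets of the same signal. GPX2 is a selenium-containing glutathione peroxidase that reduces hydrogen peroxide in endoderm-derived epithelia.

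The stage was checked on 16 markers of foregut and pancreatic endoderm. At least 1 UMI of them was seen in 71.5% (69.3 to 73.7, exact binomial interval) of 1649 WT cells and in 64.3% (62.0 to 66.5) of 1837 KO cells, each thinned to 500 UMIs. Genes of unrelated tissues, which show the level of stray UMIs, were seen in 0.0606% and 0.327% of the same cells. GATA4 was the marker with most UMIs, 1581 in WT and 1773 in KO. PDX1 had only 77 and 57 UMIs and SOX9 84 and 26, so the label of pancreatic endoderm rests here on the general foregut markers. Hepatic genes were present too, in 31.3% and 21.1% of thinned cells, and pluripotency genes in 24.0% and 23.1%. These lists share genes with foregut lists, such as HNF4A and HHEX of the hepatic and SOX2 of the pluripotency genes. The shares therefore do not count hepatic or pluripotent cells.

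GPX2 itself could not check the labels. It had 4 UMIs in WT and 1 in KO, a ratio of 0.276 with an interval from 0.0056 to 2.79. The genotypes therefore rest on the labels of the libraries.

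Levels are given as CPM, the UMIs of a gene scaled to the library total (counts per 1000000), and each ratio is KO over WT. Of 10499 genes with at least 50 UMIs over both libraries, 8678 (82.7%) differed by less than 1.5-fold. The median log2 ratio was -0.03. At least 2-fold, with and without the heaviest barcodes, 165 genes were higher in KO (1.57% of those measured) and 217 lower (2.07%). In 843 genes (8.03%) all 4 KO wells lay above all 4 WT wells, and in 894 (8.52%) below. This held for 124 of the 165 higher and 150 of the 217 lower genes, which were chosen on the same UMIs.

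Short genes stood lower in KO. The median log2 ratio went from -0.23 in the 2097 genes with the shortest gene models, up to 19.5 kb, to 0.05 in the 2096 with the longest. The lower genes had a median length of 22.9 kb and the higher genes 91.3 kb, against 53.5 kb over all. With each ratio divided by the median of its length decile, 193 genes were higher and 151 lower. The part of gene length in each result was not tested, and length-centred medians are given for several lists. Chromosomes ranged from -0.10 (chromosome 4) to 0.12 (chromosome 19) in median log2 ratio.

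**Figure D1:**
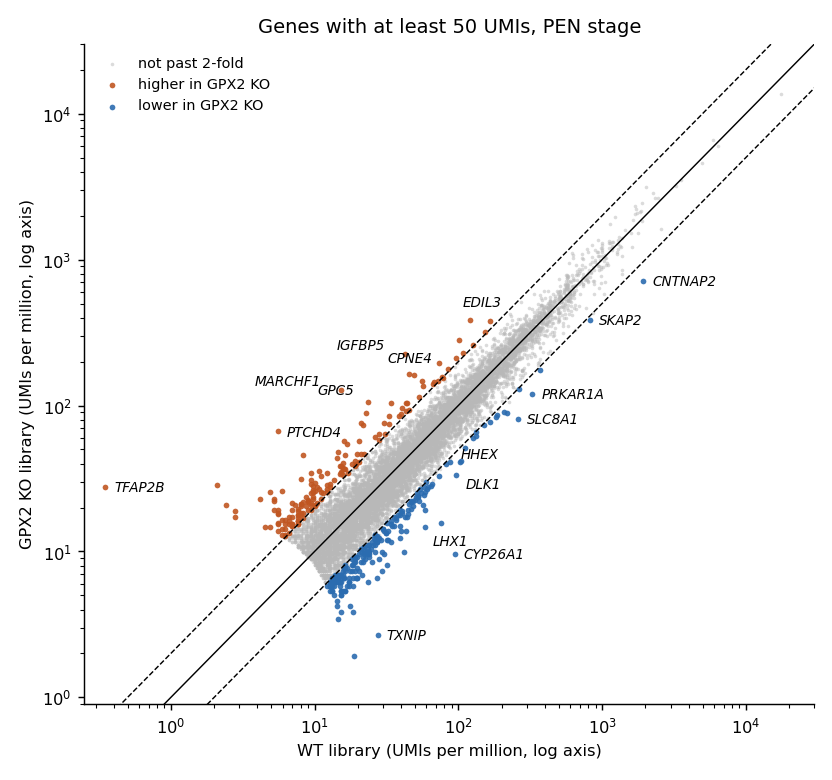
Level of each measured gene in the WT (x) and GPX2 KO (y) library at the PEN stage, in CPM on log axes. The solid line is equality and the dashed lines are 2-fold. Coloured genes passed 2-fold with and without the heaviest barcodes, and some are labelled, such as MARCHF1 at 15.3 and 129 and CYP26A1 at 94.1 and 9.60.

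CYP26A1, which removes retinoic acid, was the lowest in KO of all genes with at least 200 UMIs. It had 270 UMIs in WT, or 94.1 CPM (83.2 to 106), and 25 in KO, or 9.60 CPM (6.22 to 14.2). The WT wells lay at 85.5, 116, 117 and 65.1 CPM and the KO wells at 13.5, 11.8, 2.96 and 10.2 CPM. No KO well came near a WT well. The ratio was 0.102 (0.0649 to 0.154), and 0.087 without the heaviest barcodes. A UMI of it was seen in 5.09% (4.08 to 6.27) of thinned WT cells and 0.49% (0.224 to 0.928) of thinned KO cells, and in 11.6% and 1.20% of cells before thinning.

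The CYP26A1 promoter is shown because it holds a repeat of the kind that retinoic acid receptors bind. The stretch was taken from RefSeq (GRCh38.p14, chr10:93073797-93073826, plus strand), with the 2 hexamers in capitals, and its second hexamer ends 74 bases before the start.

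CYP26A1 promoter: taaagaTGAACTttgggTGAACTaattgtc

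Read on the opposite strand, both hexamers are AGTTCA, spaced by 5 bases. Such repeats of the hexamer AGTTCA, the hexamer AGGTCA, the hexamer GGTTCA or the hexamer GGGTCA, in any pairing and on either strand, in the 300 bases around the start, were found in 29 of 27305 genes (0.106%) and in 7 of 8073 measured genes with a window (0.0867%). Of the 12 named lower genes, 7 had a window and CYP26A1 alone held the repeat, and none of the 12 named higher genes did. Spaced by 2 bases it was in 0.0513% of genes and in none of the named ones. A match describes these letters only.

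The other retinoid genes differed less. Of 10 measured genes of the retinoid response list, 3 were lower at least 2-fold, CYP26A1 and HOXA3 among them, and none higher. Of all measured genes, 2.07% were lower and 1.57% higher. The median log2 ratio of the list was -0.31. MEIS2, a homeobox cofactor of HOX proteins, had a ratio of 0.860 (0.819 to 0.904) and RARB, the retinoic acid receptor beta, 0.879 (0.805 to 0.959). None of 4 receptors passed 2-fold, with a median of -0.27, and none of 8 genes of retinoid synthesis and transport, with a median of -0.10. DHRS3, which turns retinaldehyde back to retinol, stood at 0.878 (0.796 to 0.968). These values lie close to each other and far from that of CYP26A1.

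HOTAIRM1, a long non-coding RNA of the HOXA cluster, was at 217 CPM in WT and 89.5 in KO, a ratio of 0.412 (0.353 to 0.479). Its WT wells lay close together at 213 to 223 CPM and its KO wells at 78.8 to 103, without overlap. Reads of overlapping gene models at this locus could be told apart only by strand. HOXA3, an anterior HOX gene, had 41 and 18 UMIs, a ratio of 0.484 (0.262 to 0.862). SKAP2, an adaptor protein gene next to the cluster at chr7:26667068-26995239 (GRCh38, GENCODE v44), had 2377 and 1007 UMIs, a ratio of 0.467 (0.433 to 0.503). HIBADH, on the other side of the cluster, stood at 0.958 (0.836 to 1.10), and SNX10, beyond SKAP2, at 1.10 (0.753 to 1.62). Other neighbours were lower by less than 2-fold, with HNRNPA2B1 at 0.786 (0.742 to 0.833), TAX1BP1 at 0.739 (0.646 to 0.844) and JAZF1 at 0.811 (0.717 to 0.916). These neighbours were looked at after the lower genes of the cluster had been seen.

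LHX1, a homeobox factor of the early endoderm and the anterior organiser, had 169 UMIs in WT and 38 in KO. The WT wells lay between 45.7 and 76.4 CPM and the KO wells between 8.95 and 23.7 CPM. The ratio was 0.248 (0.170 to 0.354). HHEX, a homeobox factor of the foregut, had 87.8 CPM (77.3 to 99.4) in WT and 40.7 (33.3 to 49.3) in KO, with wells of 75.7 to 97.8 against 34.8 to 51.2. SHISA2, an antagonist of WNT and FGF receptors in the head region, had 54 and 5 UMIs and was picked out after its values were seen. Its WT wells spread from 3.06 to 25.4 CPM and overlapped the KO wells of 1.12 to 3.94.

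The 3 FOXA pioneer factors all stood lower in KO. FOXA2 had 216 CPM in WT and 113 in KO, a ratio of 0.523 (0.453 to 0.602), and a UMI in 11.6% (10.1 to 13.2) and 4.14% (3.27 to 5.15) of thinned cells. FOXA1 stood at 0.576 (0.485 to 0.683) and FOXA3 at 0.459 (0.290 to 0.712). For each of them the KO wells lay below the WT wells, but only FOXA3 passed 2-fold with all barcodes counted. GATA4, their partner in endoderm, went the other way, with 551 CPM (524 to 579) in WT and 681 (650 to 714) in KO and no overlap of wells. Its relative GATA6 had 403 and 345 UMIs and overlapping wells, as did HNF4A with 309 and 313. Factors of the same stage stood on both sides of 1.

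DLK1, a membrane ligand related to the Notch ligands that marks immature hepatic and pancreatic cells, had 96.5 CPM (85.5 to 109) in WT and 33.4 (26.8 to 41.2) in KO. Its ratio was 0.346 (0.269 to 0.442), with WT wells of 72.8 to 119 and KO wells of 26.6 to 43.3 CPM. SOX9, a factor of pancreatic progenitors, had 84 and 26 UMIs, a ratio of 0.341 (0.211 to 0.535), and a UMI in 1.64% (1.08 to 2.37) and 0.327% (0.12 to 0.71) of thinned cells. SOX9 wells overlapped. PDX1 stood at 0.816 (0.569 to 1.16), a difference not detectable at this depth. ONECUT2, a factor of hepatic and pancreatic progenitors, stood at 0.712 (0.652 to 0.778).

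The lists below stand beside 2.07% of all measured genes lower and 1.57% higher at least 2-fold. Of 16 measured pancreatic progenitor genes, 2 were lower and none higher, with a median log2 ratio of -0.37, or -0.20 centred by length. For 14 hepatic genes these were 2, 0 and -0.41, with HHEX and DLK1 again the lower ones. For 13 definitive endoderm genes they were 3 (LHX1, CXCR4, FOXA3), 0 and -0.34. Both genes past 2-fold among 6 anterior and foregut patterning genes, LHX1 and HHEX, were lower. PRDM1, in the same list, stood at 1.68 (1.44 to 1.97). Of 5 intestinal genes, LGR5, a receptor of intestinal stem cells, was higher (20 and 40 UMIs) and ISX, a homeobox factor of the gut, lower (50 and 16). VIL1, the microvillus protein villin, stood at 1.42 (1.21 to 1.67). Posterior patterning genes had 11 and 9 UMIs in all, and none was measured.

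**Figure D2:**
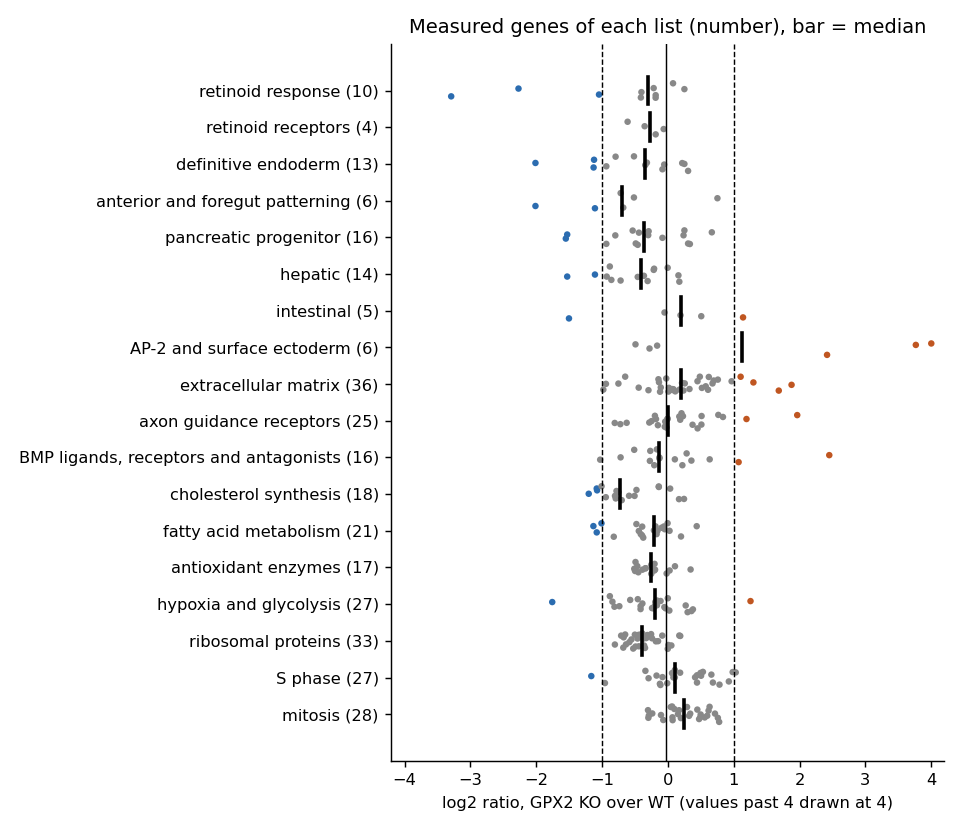
The log2 ratio of KO over WT (x) of each measured gene of 18 lists (y, number of genes in brackets). Black bars are list medians, the solid line the median of all measured genes, dashed lines 2-fold, and values past 4 are drawn at 4. Orange and blue genes passed 2-fold. The median of the cholesterol synthesis list, -0.73, lies farthest to the left of those drawn.

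The 24 named genes are those with at least 200 UMIs and the 12 highest and 12 lowest ratios. MARCHF1, a membrane-bound ubiquitin ligase, had 44 UMIs in WT and 335 in KO. Its WT wells lay at 6.11, 15.4, 15.2 and 18.2 CPM and its KO wells at 113, 106, 138 and 146 CPM. The lowest KO well was above every WT well, and the ratio was 8.39 (6.12 to 11.8). Thinned to the same depth, 0.728% (0.377 to 1.27) of WT and 4.41% (3.52 to 5.45) of KO cells had a UMI of it.

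EDIL3, a secreted integrin ligand of the extracellular matrix, had 347 and 1011 UMIs, with WT wells of 111 to 144 CPM and KO wells of 343 to 422. Its ratio was 3.21 (2.84 to 3.64). It was seen in 5.52% (4.47 to 6.73) of thinned WT cells and 13.6% (12.1 to 15.3) of thinned KO cells. CPNE4, a calcium-dependent membrane-binding protein, stood at 3.64 (2.98 to 4.46), DCDC2, a microtubule-binding protein of cilia, at 2.77 (2.42 to 3.18) and RBMS3, an RNA-binding protein, at 2.68 (2.28 to 3.17). PLD5 stood at 3.06 (2.42 to 3.9) and KCTD16, a subunit that attaches to GABA-B receptors, at 2.63 (2.18 to 3.18). For all 12 named higher genes the KO wells lay above the WT wells, as in 8.03% of all measured genes. The 12 were chosen on the same UMIs, so this is no independent support.

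**Figure D3:**
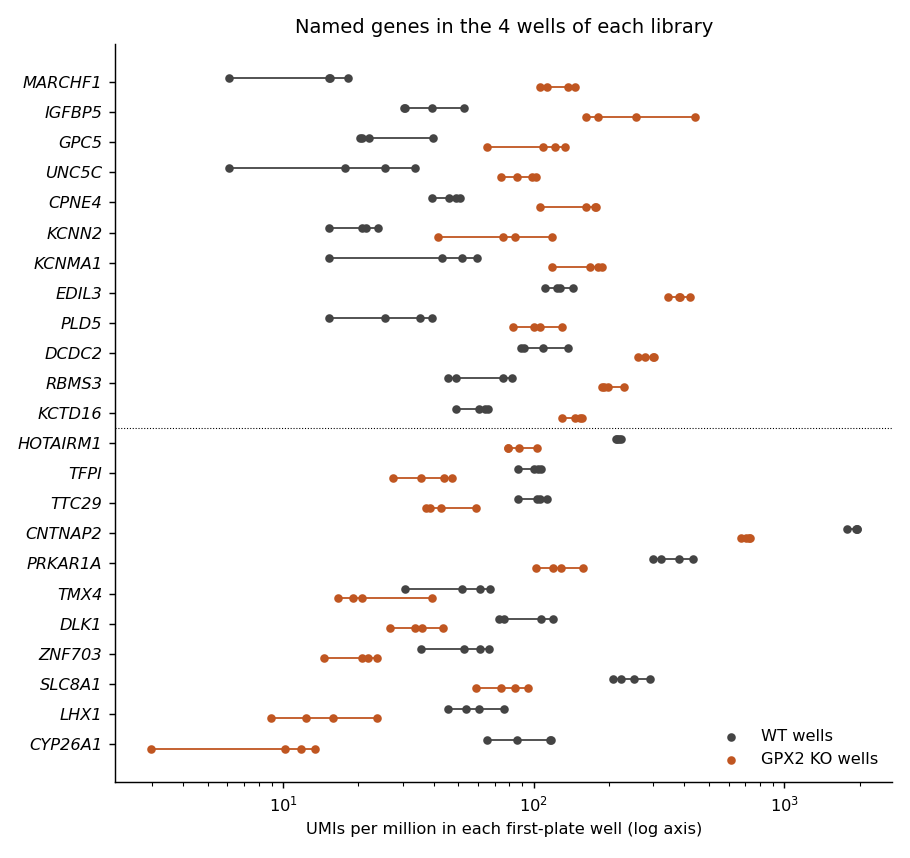
CPM (x, log axis) of named genes in the 4 initial-plate wells of the WT (grey) and GPX2 KO (orange) library, each dot a well and each line the range. The 12 higher genes are above the dotted line and the lower ones below it. Of the genes drawn, the wells overlap for TMX4 alone, at 30.6 to 66.9 in WT and 16.6 to 39.4 in KO. The genes were chosen on the same UMIs.

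IGFBP5, GPC5, UNC5C, KCNN2 and KCNMA1 had much of their KO level in cells that held AP-2 or GABRP UMIs. AP-2 factors are transcription factors of surface ectoderm and trophoblast, and GABRP is an epithelial GABA receptor subunit. TFAP2B had 1 UMI in WT and 72 in KO, a ratio of 79.4 (13.8 to 3178), TFAP2A 3 and 35, and GABRP 6 and 74. A UMI of any of them was held by 5 WT and 86 KO cells. Such cells were in every KO well, at 3.52% to 5.39% of its cells, and at 0 to 0.633% in the WT wells. The 86 KO cells held 17.9% of the KO UMIs, and 8 of them were among the heaviest barcodes. The 5 WT cells held 9.34% of the WT UMIs, and 2 of them were among the heaviest barcodes.

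Leaving the heaviest barcodes aside, 78 KO cells with such a UMI, with a median of 1096 UMIs, were set beside the 1737 other KO cells, with a median of 822. IGFBP5, an IGF-binding protein, was at 2610 CPM in the former and 75.5 in the latter. GPC5, a heparan sulfate proteoglycan, was at 1044 and 52.4 CPM. UNC5C, a netrin receptor, was at 867 and 38.5, KCNN2, a calcium-activated potassium channel, at 803 and 28.8, and KCNMA1, the large-conductance one, at 1317 and 92.4. CCBE1, a secreted factor of lymphatic growth, followed at 610 and 21.6. VTCN1, an immune checkpoint ligand of epithelia, had 24 and 8 UMIs, and the matrix genes TNC and TGFBI 16 and 7, and 18 and 2. Deep cells are more likely to be picked by such a rule, so these values describe the cells and test nothing.

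The same cells had less of the endodermal factor GATA4, 273 against 704 CPM. EDIL3, at 201 and 394 CPM, and DCDC2, at 137 and 284, were lower in them, MARCHF1, at 72.3 and 120, was not apart beyond counting error, while RBMS3, at 305 and 185, and PLD5, at 161 and 95.5, were somewhat higher. With all cells of this kind left out of both libraries, KCNN2 stood at 1.38, KCNMA1 at 1.81, UNC5C at 1.97, IGFBP5 at 2.02 and GPC5 at 2.37, and MARCHF1 at 8.83. The AP-2 and surface ectoderm list, of 16 genes with 6 measured (IGFBP5 among them), had a median log2 ratio of 1.13 over all cells. Of the 6 ratios, 3 were above 1, those of TFAP2B, GABRP and IGFBP5, and 3 below. KRT19 was among the latter, at 0.711 (0.569 to 0.886). With the cells of this kind left out, and so all UMIs of TFAP2B and GABRP, the median was -0.31. The summed level of the list over all cells was 159 to 182 CPM in the WT wells and 331 to 776 in the KO wells, with 3 genes at 0 in WT and 2 in KO.

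**Figure D4:**
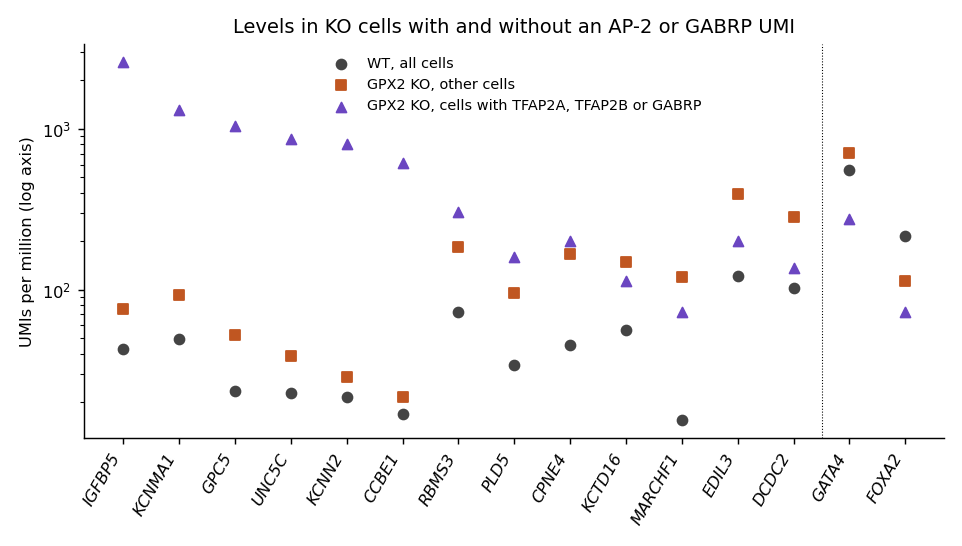
CPM (y, log axis) of named genes in all WT cells (circles), in 78 KO cells with a UMI of TFAP2A, TFAP2B or GABRP (triangles) and in the 1737 other KO cells (squares), the KO values without the heaviest barcodes. IGFBP5 to CCBE1 are at 610 to 2610 CPM in the 78 cells, and EDIL3, DCDC2 and GATA4 are higher in the other KO cells. MARCHF1 and FOXA2 are drawn higher there too, but not beyond counting error.

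Extracellular matrix genes leaned to KO. Of 36 measured, 25 had a ratio above 1 and 4 passed 2-fold, EDIL3 among them and all higher, against 1.57% of all measured genes. The median log2 ratio of the list was 0.20. All 4 KO wells lay above the WT wells in 12 of the 36 and below them in 2. Over all measured genes, 8.03% lay above and 8.52% below. FBLN2, a basement membrane fibulin, had 27 and 90 UMIs, HAPLN1, which links hyaluronan to proteoglycans, 26 and 58, and COL6A2 20 and 39. Leaving the heaviest barcodes aside, HAPLN1 had 27 UMIs in the KO cells with an AP-2 or GABRP UMI and 22 in the other KO cells. The abundant members differed less, with LAMA1, a laminin of early basement membranes, at 1.62 (1.52 to 1.72), VCAN at 1.43 (1.35 to 1.51) and FN1, fibronectin, at 1.25 (1.21 to 1.30). The collagen gene COL4A5, also abundant with 2815 and 2324 UMIs, went the other way, at 0.910 (0.861 to 0.962).

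Among 25 measured guidance receptors, UNC5C and UNC5D were higher at least 2-fold and none lower, against 1.57% and 2.07% of all measured genes. Of the 25, 12 had a ratio above 1 and 13 below, with a median log2 ratio of -0.003. UNC5D, a relative of UNC5C, had 165 CPM (150 to 180) in WT and 377 (354 to 401) in KO and a UMI in 7.22% and 14.9% of thinned cells. DSCAM, an adhesion molecule that also binds netrin, stood at 0.571 (0.541 to 0.603). CNTNAP2, a neurexin relative of large gene size, had the most UMIs of the 24 named genes. It had 1936 CPM (1886 to 1988) in WT and 715 (683 to 748) in KO, was seen in 50.6% (48.1 to 53) and 23.1% (21.2 to 25.1) of thinned cells, and its wells of 1789 to 1955 and 670 to 732 CPM did not overlap. CNTN4, a contactin, stood at 1.59 (1.44 to 1.77).

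BMP5, a BMP ligand, had 24 and 119 UMIs, a ratio of 5.47 (3.50 to 8.87), with WT wells of 6.92 to 10.2 CPM and KO wells of 39.3 to 53.7. Of 16 measured BMP ligands, receptors and antagonists, 2 were higher at least 2-fold, BMP5 among them, and none lower. Over all measured genes, 1.57% were higher and 2.07% lower. The median log2 ratio of the 16 was -0.13, and 0.02 without the heaviest barcodes. The receptor gene BMPR1B stood at 0.607 (0.566 to 0.652). None of 7 BMP response genes passed 2-fold, and their median log2 ratio was -0.31, or -0.20 centred by length. PTCHD4, a relative of the hedgehog receptor that is also a p53 target, had 16 UMIs in WT and 173 in KO, a ratio of 11.9 (7.13 to 21.3). The remaining 8 measured hedgehog genes did not pass 2-fold.

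Among the remaining lower genes, SLC8A1, the sodium-calcium exchanger, had wells of 208 to 292 CPM in WT and 59.1 to 94.6 in KO, a ratio of 0.314 (0.268 to 0.366). PRKAR1A, the regulatory subunit of protein kinase A, had 941 and 313 UMIs, a ratio of 0.367 (0.322 to 0.417), with wells of 300 to 432 and 102 to 158 CPM. TFPI, an inhibitor of coagulation, and TTC29, an axonemal protein, both stood at 0.397. ZNF703, a transcriptional repressor, stood at 0.328 (0.234 to 0.452). TMX4, a thioredoxin-like membrane protein, stood at 0.365 (0.263 to 0.5) with overlapping wells.

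Cholesterol synthesis genes stood lower together. Of 18 measured, 15 had a ratio under 1 and 3 passed 2-fold, all lower, against 2.07% lower over all measured genes. The median log2 ratio of these 18 was -0.73, or -0.56 centred by length. Their summed level was 804 to 915 CPM in the WT wells and 640 to 669 in the KO wells. HMGCS1, which makes HMG-CoA, was at 127 CPM (114 to 141) in WT and 59.9 (50.9 to 70.1) in KO, with wells of 112 to 150 and 51.6 to 67.0. IDI1 and SC5D, later in the pathway, stood at 0.474 (0.314 to 0.705) and 0.434 (0.292 to 0.635). SQLE, which makes squalene epoxide, stood at 0.577 (0.433 to 0.764). SREBF2, the regulator of the pathway, did not follow, at 1.18 (1.04 to 1.35).

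Of 21 fatty acid genes, SCD, the desaturase that makes oleic acid, CD36 and SREBF1 were lower and none was higher. The shares over all measured genes were 2.07% lower and 1.57% higher. SCD was at 182 CPM (167 to 198) in WT and 83.0 (72.3 to 94.8) in KO, and was seen in 9.58% and 3.05% of thinned cells. Of 27 hypoxia and glycolysis genes, LDHA was lower (41 and 11 UMIs) and SLC2A3, a glucose transporter, higher at 2.39 (1.91 to 3.00). VEGFA stood at 0.600 (0.526 to 0.682). TXNIP, a glucose-induced inhibitor of thioredoxin, had 79 and 7 UMIs, a ratio of 0.0977 (0.038 to 0.211), with wells of 20.1 to 35.4 and 1.12 to 4.44 CPM, and was picked out after its values were seen.

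None of 17 measured antioxidant genes passed 2-fold. Of these, 3 had a ratio above 1, with a median log2 ratio of -0.25, or -0.19 centred by length. TXNRD1, thioredoxin reductase, stood at 0.873, GCLC, of glutathione synthesis, at 0.732 and SOD2, the mitochondrial dismutase, at 0.764. FTL, the ferritin light chain, which is in no list, had 379 and 161 UMIs, a ratio of 0.468 (0.387 to 0.565). DDB2, a DNA damage protein under p53, had 14.6 and 48.0 CPM, a ratio of 3.28 (2.30 to 4.77), and SESN2, a stress-induced sestrin, 30 and 56. The other 11 measured genes of the p53 target list did not pass 2-fold, while 1.57% of all measured genes were higher. PTCHD4, given above, is counted in the hedgehog list.

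Ribosomal protein and elongation factor genes, which are short, had a median log2 ratio of -0.39, or -0.15 centred by length, and none of 33 passed 2-fold. EEF1A1 stood at 0.611 (0.580 to 0.644). Mitotic genes had a median of 0.24, with 22 of 28 above 1 and none past 2-fold. S phase genes had 0.11, with PRIM1 alone of 27 past 2-fold and lower, against 2.07% of all measured genes. Mitochondrially encoded genes had a median of 0.23 with all barcodes and -0.05 without the heaviest.

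Replicated bulk RNA-seq of the same genotypes was available from the posterior foregut (PFG) stage at day 6, with 2 libraries labelled WT and 2 labelled GPX2 KO. Their titles carry a mark that may stand for spontaneous differentiation, so the protocol of these libraries is not certain, and p-values measure the spread between libraries only. In bulk, fewer cells of a type and less RNA per cell cannot be told apart. Here GPX2 was lower in CPM in both libraries labelled KO than in both labelled WT. It was not absent from them, though the methods of the study describe deletion of the gene. It had 151 counts (17.7 CPM) and 55 (7.49 CPM) in the libraries labelled WT, and 37 (3.85 CPM) and 55 (5.62 CPM) in those labelled KO, so that reads of the targeted gene were present and the libraries labelled WT F1 and KO F1 lay close together. Of 14633 genes tested with edgeR's quasi-likelihood test at an adjusted p under 0.05, 37 were higher (0.253%) and 19 lower (0.13%) in the libraries labelled KO. Of the PEN-stage genes, 122 higher and 163 lower ones could be tested. Of these, 2 and 1 passed in the same direction. All these counts moved many times over with the setting, so that without WT E2, for example, 564 and 413 of 15488 genes passed, with 24 and 17 of the PEN-stage genes in the same direction and 4 and 5 in the opposite one.

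Among the 122, IGFBP5 and ZNF667 passed and were higher at day 6 too. IGFBP5 had 22.1 and 26.6 CPM in the libraries labelled WT and 44.2 and 48.0 in those labelled KO, a log2 fold change of 0.92 (SE 0.14, adjusted p = 0.0339 with edgeR). ZNF667, a zinc finger gene named here because it passed, had 0.939 and 0.954 CPM against 17.3 and 18.7, a log2 fold change of 4.23 (SE 0.27, adjusted p = 0.00170 with edgeR). At the PEN stage it had 20 and 56 UMIs, a ratio of 3.09 (1.82 to 5.43), with overlapping wells.

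Among the 163, HHEX passed and was lower, with 121 and 182 CPM in the libraries labelled WT and 68.6 and 63.6 in those labelled KO, a log2 fold change of -1.19 (SE 0.17, adjusted p = 0.0329 with edgeR). KCND3, a potassium channel lower at the PEN stage (ratio 0.451), passed in the opposite direction, at 1.22 (SE 0.20, adjusted p = 0.0493 with edgeR). DLK1 had a log2 fold change of -0.91 (SE 0.15, adjusted p = 0.0545 with edgeR) and LHX1 one of -1.72 (SE 0.38, adjusted p = 0.127 with edgeR), neither past the threshold, though both passed with DESeq2 (adjusted p = 5.64e-07 and 0.00194). CNTNAP2 had -0.09 (SE 0.16) and MARCHF1 -0.23 (SE 0.20), neither past the threshold. CYP26A1 had too few counts at day 6 to be tested. The median log2 fold change at day 6 was 0.13 over the 122, -0.01 over the 163 and -0.01 over all 9458 PEN-stage genes tested.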

How the data were processed

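Per the study's methods, PEN-stage cells were fixed in methanol and the authors counted UMIs with the ScaleBio kit and its NextFlow pipeline. The submitters' processing notes name GRCh38, without saying for which data. Of the deposited values, 10.2% of WT and 10.5% of KO entries are not whole. What the fractions stand for is not given in the sources used here, so the deposited values were handled like expected counts, not normalized by the authors, and rounded here to whole numbers per cell and gene. For day 6, the authors deposited raw counts per gene, made with fastp, STAR and featureCounts, with 7315509 to 9725172 per library.

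Barcodes with at least 200 genes and under 5% mitochondrial UMIs were kept and summed per genotype. Genes with at least 50 UMIs over both libraries were measured. A gene was called higher or lower at 2-fold with all cells and again without barcodes above 10 times the median UMIs. Sums have exact Poisson, ratios exact conditional binomial and shares exact Clopper-Pearson 95% intervals (scipy 1.17.1, Python 3.11.15). Shares were compared after thinning each cell to 500 UMIs, which left out 52 WT cells. Named genes were the 12 highest and 12 lowest ratios among called genes with at least 200 UMIs. Clone-named, LINC, mitochondrial and Y-linked genes and XIST were left out. For each list, its members past 2-fold and up to 4 further members with the most UMIs were named too. TXNIP, SHISA2, ZNF667, FTL and CCBE1 were named after their values were seen. The members and the 41 gene lists were chosen with earlier results of these data known. Day 6 was tested with edgeR 4.0.16 (quasi-likelihood, TMM, filterByExpr, Benjamini-Hochberg over all genes tested, R 4.3.3), with DESeq2 1.42.0 as the alternative. The scripts were tested on simulated data. Gene models were from GENCODE v44 and promoters from RefSeq (GRCh38.p14). A few genes that the rule names are not reported here.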

Additional observations from a re-analysis of the deposited data

How the results depend on the processing

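The 165 higher and 217 lower genes at the PEN stage became 288 and 385 when only the sums without the heaviest barcodes were used, 302 and 522 with the mean of each cell's own CPM, 345 and 522 with a minimum of 20 UMIs, and 41 and 43 with a minimum of 200. The counts stayed within 1.5 times with at least 500 genes per cell, with unrounded values, with ratios divided by their median (181 and 195), without cells holding an AP-2 or GABRP UMI (149 and 256) and with the length centring chosen after seeing the data (193 and 151). No ratio of the 24 named genes changed direction under these settings, and 1 gene of all those called did under any. At day 6, the 2 and 1 PEN-stage genes that passed in the same direction, beside 37 and 19 of all 14633 genes, became 7 and 8 with DESeq2 (99 and 60 of all genes), and 19 and 16 without a filter beyond 1 count (355 and 225). Leaving out 1 library gave 8 to 24 higher and 3 to 17 lower genes, namely 13 and 7 without KO E1 (180 and 80 of all genes), 8 and 10 without KO F1 (121 and 80), 24 and 17 without WT E2 (564 and 413), and 8 and 3 without WT F1 (144 and 77), where the lone library of its group was assumed to vary like the others. The cause was not tested. The labels' replicate numbers are not in the columns of the day 6 table, so they gave no pairing. A block by the column letters E and F, whose meaning no source used here gives, was added after seeing the data and leaves 1 residual degree of freedom. It gave 22 and 16 genes in the same direction, 2 and 8 in the opposite one, and 515 and 327 of all genes. Libraries of the same letter deviated together with a correlation of 0.24 across 14633 genes, which are not independent replicates. The PEN stage has 1 library per genotype. Depth limits the PEN stage to genes with many UMIs: PDX1, SOX9 and GPX2 are near what it can show.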

Other observations

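Genes of motile cilia stood lower in KO at the PEN stage. The families were collected by symbol after cilium genes had been seen among the lower genes, so this is a description without independent support. Of 93 listed genes 56 were measured, of which 5 passed 2-fold, all lower, against 2.07% lower over all measured genes. Of the 56, 4 had a ratio above 1. The median log2 ratio was -0.62, against -0.03 over all measured genes, and -0.57 centred by gene length. Their summed level was 6419 to 6779 CPM in the WT wells and 4347 to 4789 CPM in the KO wells, without overlap. DNAH12, an axonemal dynein heavy chain, had 129 UMIs in WT and 50 in KO, and RSPH1, of the radial spoke, 80 and 32. FOXJ1, the master regulator of motile ciliogenesis, had 302 and 161 UMIs, with overlapping wells. Genes of intraflagellar transport and the primary cilium, 43 of them measured, had a median log2 ratio of -0.18, with 1 past 2-fold and lower. At day 6, none of 42 tested motile cilium genes passed edgeR's test at an adjusted p under 0.05, with a median log2 fold change of -0.03.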
